A study of Mus musculus with 30 samples.

Results

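Undifferentiated mouse embryonic stem cells that carry a gene trap in both copies of Aebp2 (genotype Aebp2gt/gt) were compared with C129 wild type embryonic stem cells across all genes. The comparison uses 4 of the 30 libraries of the series, gene trap replicates 1 and 2 and C129 replicates 1 and 2, chosen by the genotype and the culture state in the labels. All 4 cultures were at day 0, on gelatin in GMEM with 10% serum and LIF, the cytokine that holds these cells undifferentiated. The rest of the series holds embryoid bodies of both lines at day 4 and day 8 and 3 further lines, among them a second wild type called Pali wild type, whose 2 day 0 libraries are given below as a second wild type level. The labels name C129 only as wild type, and neither the origin of the gene trap line nor a number of clones is given in the sources used here. Genotype and line history therefore cannot be told apart in any difference below. The series' design text calls the samples biological duplicates; whether they came from separate clones is not stated, and each p-value reflects the variation among such duplicates.

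AEBP2 is a zinc finger protein that binds Polycomb repressive complex 2 (PRC2), the enzyme complex that places trimethylation on histone H3 at developmental regulators that are kept silent. The core of the complex is made of EZH2 or EZH1, EED, SUZ12 and RBBP4 or RBBP7. AEBP2 and JARID2 mark one form of the complex, and a Polycomb-like protein (PHF1, MTF2 or PHF19) with EPOP or a PALI protein marks another. A gene trap is an insertion that captures a gene's transcript by splicing and so lowers or cuts short its product.

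The values are normalised counts per gene. The estimated depth was 15007600 and 23391000 reads in the gene trap libraries and 14319800 and 28151900 reads in the C129 libraries. Duplicates correlated at 0.954 in the gene trap and 0.959 in C129 (Pearson, log2 scale, across the 15712 tested genes, which are not independent replicates). Gene trap replicate 1 had 3551 genes at 0, against 4904 in the more deeply sequenced gene trap replicate 2. The 10 embryonic stem cell markers together held 124641 and 143953 normalised counts in the gene trap and 125700 and 115574 in C129, with none at 0 and none called. Markers of fibroblasts, the usual feeder cells, summed to 394 and 214 in the gene trap and 333 and 259 in C129, and 0 of 9 tested were called. A wider list, of fibroblasts and mesenchyme, had 24 genes tested, of which 5 fell and 0 rose (20.8% lower, beside 7.78% of all tested genes), with a median log2 difference of -0.42. These calls did not hold without gene trap replicate 2 or without C129 replicate 1, and most were lost without C129 replicate 2. The median was -1.30 without gene trap replicate 1 and -0.11 without gene trap replicate 2. It was -0.45 without C129 replicate 1 and -0.59 without C129 replicate 2. The gene trap duplicates lay apart for this list, with mean log2 levels of 5.91 and 4.82, against 6.21 and 5.95 in C129. Against Pali wild type 5 of the 24 were higher and 0 lower, with a median of 0.71, beside 1005 higher and 1039 lower of all 15712 tested genes. The sums for primitive endoderm, mesoderm, neural, trophoblast and blood markers were either overlapping or, for blood, lower in the gene trap with 0 of 3 tested markers called: blood markers summed to 37.3 and 51.5 in the gene trap and 66.7 and 72.3 in C129, with Hbb-bt at 0 in all 4 libraries. In bulk RNA, fewer cells of a kind and less RNA per cell cannot be told apart.

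Aebp2 RNA (chromosome 6, 140622663 to 140678472, plus strand, GRCm38) was at 30.5 and 35.2 normalised counts in the gene trap, against 2611 and 2784 in C129 and 1452 and 1232 in Pali wild type. Both gene trap libraries lay far below every wild type library. The difference, on the scale of log2(value + 4) that is used throughout, was -6.20 (SE 0.329, limma adjusted p = 3.55e-09). It lay between -6.29 and -6.11 when any 1 of the 4 libraries was left out. Against Pali wild type the difference was -5.19. Of the 5 tested genes on each side of Aebp2, only Slco1c1, a transporter gene, was called: it was at 3.39 and 4.61 in the gene trap and 52.8 and 36.5 in C129 (log2 difference -2.59, adjusted p = 0.00412), and its call did not hold without C129 replicate 1 (-2.34). In Pali wild type Slco1c1 was at 0 and 8.54. The nearest tested gene upstream, Plekha5, had 98.4 and 78.4 in the gene trap and 118 and 60.6 in C129, which overlap.

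Most other PRC2 genes were not called. Suz12 had 8255 and 8312 normalised counts in the gene trap and 8103 and 8266 in C129 (log2 difference 0.02, SE 0.152). Eed had 4946 and 6044 in the gene trap and 6345 and 6250 in C129 (-0.20, adjusted p = 0.405). Jarid2, the partner of AEBP2 in its form of the complex, had 6496 and 6099 in the gene trap and 8773 and 8385 in C129. Its groups did not overlap, but the difference of -0.45 missed the threshold (SE 0.171, adjusted p = 0.0991). Mtf2, Phf1, Rbbp7, Lcor and Lcorl were not called either, with log2 differences between -0.29 and 0.09. Rbbp4 was not called in the full set (0.26, adjusted p = 0.0672) and was called without gene trap replicate 1 (0.43) or without C129 replicate 2 (0.40).

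Epop, which belongs to the form of the complex without AEBP2, fell to 3745 and 4056 in the gene trap, against 5004 and 6242 in C129 (log2 difference -0.52, SE 0.155, adjusted p = 0.0342). Pali wild type had less Epop RNA than both lines, 3008 and 3410. The call of Epop did not hold without gene trap replicate 1 (-0.46), gene trap replicate 2 (-0.58) or C129 replicate 2 (-0.36). The values of both catalytic subunits cannot be read as levels. Ezh2 was listed at 0 in both gene trap libraries and at 31.5 and 82.7 in C129, but also at 0 in 23 of all 30 libraries. Ezh1 was listed at 500 and 99.9 in the gene trap and at 0 in both C129 libraries. Phf19 was listed at 0 in both gene trap libraries and at 30.2 and 0 in C129 (log2 difference -1.55, not called). A value of 0 in these files can be a failed estimate.

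**Figure D1:**
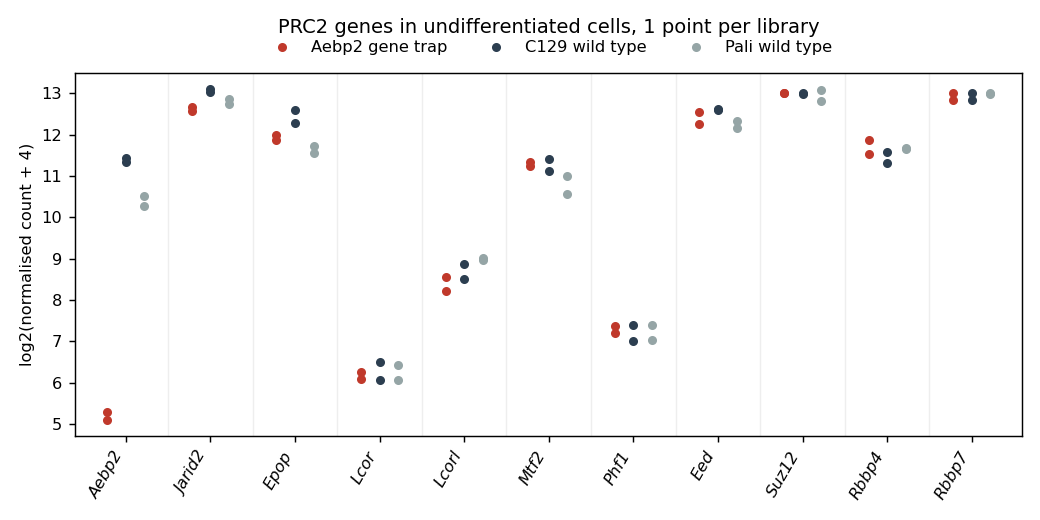
Levels of PRC2 genes at day 0 on a log2 scale, with 1 point per library and the gene trap, C129 and Pali wild type side by side for each gene. Aebp2 was at 30.5 and 35.2 normalised counts in the gene trap and 2611 and 2784 in C129.

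PRC1, the second Polycomb complex, binds the histone mark that PRC2 places and adds ubiquitin to histone H2A. Of 14 tested genes of canonical PRC1, 2 rose (14.3%) and 0 fell, and of 18 genes of variant PRC1, 3 rose (16.7%) and 1 fell, beside 5.23% of all tested genes that rose and 7.78% that fell. Cbx6, a reader subunit, had 1666 and 1874 normalised counts in the gene trap and 918 and 1103 in C129 (log2 difference 0.81, SE 0.157, adjusted p = 0.00237). Cbx3 had 5985 and 7954 in the gene trap and 2572 and 3715 in C129 (1.16, SE 0.167, adjusted p = 0.000232). Pcgf1, the subunit that defines one variant complex, had 170 and 164 in the gene trap and 85.6 and 91.8 in C129 (0.88, adjusted p = 0.00182). Cbx3 and Pcgf1 both lie in a stretch of chromosome 6, described below, in which most genes were higher in the gene trap. Ring1, a catalytic subunit, was higher by 0.72 and Bcor, a partner of PCGF1, lower by 0.93. The call of Ring1 did not hold without gene trap replicate 1 (0.70), gene trap replicate 2 (0.73) or C129 replicate 1 (0.54), and that of Bcor without gene trap replicate 1 (-0.95), gene trap replicate 2 (-0.90) or C129 replicate 1 (-0.66).

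Across the transcriptome, 2044 of 15712 tested genes (13%) were called. Of the 15712, 821 were higher in the gene trap (5.23%) and 1223 were lower (7.78%), at an adjusted p under 0.05 in a limma fit to all 30 libraries. Falls were also larger: 740 genes fell at least 2-fold and 248 at least 4-fold, against 187 and 39 that rose that far. The number of calls rests on the spread shared over the series. A fit to the 4 day 0 libraries alone called 1 gene, Aebp2, with 3324 genes at an unadjusted p under 0.05, and a fit to the 12 gene trap and C129 libraries of all days called 979. Without gene trap replicate 2 the count was 1049 and without C129 replicate 1 it was 805. The median difference of all tested genes was -0.03. The split was nearer to even in some other settings: with only genes whose mean over the 30 libraries was at least 50, 862 were higher and 952 lower, and with Pali wild type as the reference 1005 were higher and 1039 lower.

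**Figure D2:**
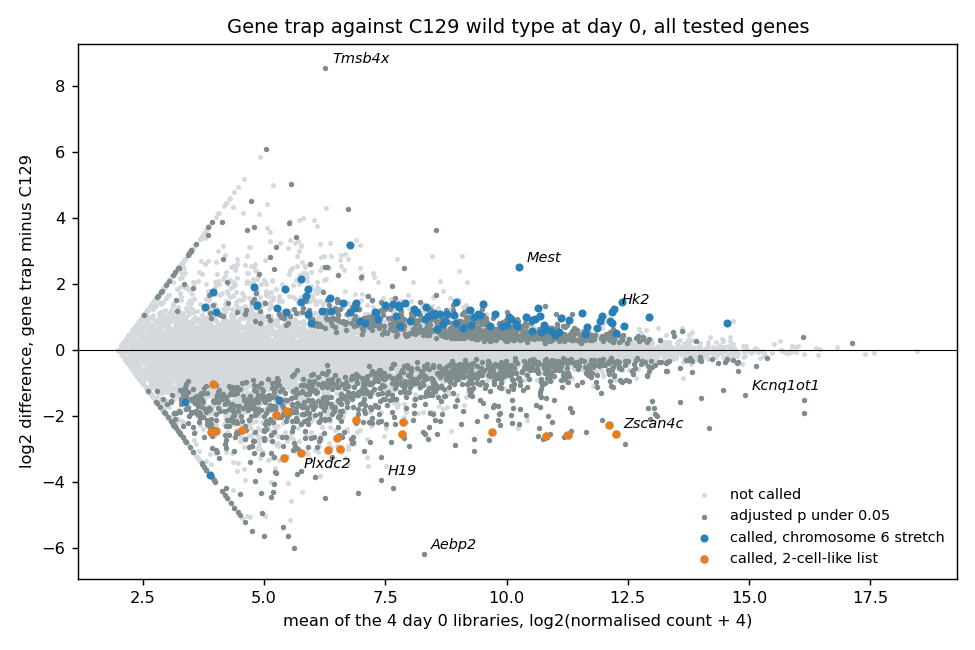
Log2 difference of the gene trap minus C129 at day 0 against the mean log2 level of the 4 libraries, 1 point per tested gene. Called genes of the chromosome 6 stretch lie above 0 apart from 3, and all 19 called genes of the 2-cell-like list lie below 0.

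Genes of the 2-cell-like state gave the list with the largest share of calls among the 32 lists counted. These genes are switched on at the mouse 2-cell stage, when the embryo's genome is first transcribed, and again in a rare, transient state of cultured stem cells. Zscan4 proteins, its best known products, act at telomeres. Of 30 listed genes 25 were tested, and 0 rose and 19 fell in the gene trap, with a median log2 difference of -2.42, beside 7.78% of all tested genes that fell and a median of -0.03. Without C129 replicate 1, 11 of the 25 were called lower, and 15, 15 and 16 were without the other libraries in turn. In the fit to the 4 day 0 libraries none was called, with the same median. The genes Tdpoz1, Tdpoz2 and Tdpoz5, 3 of the 19, passed the filter on low values only through C129 at day 0, so they could only be called lower. With only genes whose mean over the 30 libraries was at least 50, 7 of 11 fell and 0 rose.

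The promoters of 3 of these genes, and of Mkrn1, a gene of the chromosome 6 stretch that rose, are given as RefSeq places them on GRCm38.p6, from 250 bases before to 50 bases after the start and with every CG in capitals. They show the CG pairs of these starts only, with Mkrn1 as a CpG-rich start, and do not stand for the genes that fell.
Zscan4c (chromosome 7, 11005495 to 11005794, plus strand): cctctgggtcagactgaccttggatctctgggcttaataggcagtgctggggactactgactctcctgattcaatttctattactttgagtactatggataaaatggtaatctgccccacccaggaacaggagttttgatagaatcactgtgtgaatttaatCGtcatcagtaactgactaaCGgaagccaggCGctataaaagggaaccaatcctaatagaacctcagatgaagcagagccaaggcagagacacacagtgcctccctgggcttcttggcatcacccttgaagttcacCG
Zfp352 (chromosome 4, 90218570 to 90218869, plus strand): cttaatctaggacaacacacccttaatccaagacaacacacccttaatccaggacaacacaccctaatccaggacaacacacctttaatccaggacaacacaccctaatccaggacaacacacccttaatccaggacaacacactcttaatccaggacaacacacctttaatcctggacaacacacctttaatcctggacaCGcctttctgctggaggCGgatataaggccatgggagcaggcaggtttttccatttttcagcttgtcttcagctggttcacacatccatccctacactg
Tdpoz4 (chromosome 3, 93796148 to 93796447, plus strand): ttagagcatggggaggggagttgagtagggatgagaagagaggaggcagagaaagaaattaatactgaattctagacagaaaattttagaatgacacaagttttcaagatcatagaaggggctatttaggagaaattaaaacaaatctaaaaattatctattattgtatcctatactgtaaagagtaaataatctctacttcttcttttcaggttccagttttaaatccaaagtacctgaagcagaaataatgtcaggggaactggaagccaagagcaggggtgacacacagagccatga
Mkrn1 (chromosome 6, 39419727 to 39420026, minus strand): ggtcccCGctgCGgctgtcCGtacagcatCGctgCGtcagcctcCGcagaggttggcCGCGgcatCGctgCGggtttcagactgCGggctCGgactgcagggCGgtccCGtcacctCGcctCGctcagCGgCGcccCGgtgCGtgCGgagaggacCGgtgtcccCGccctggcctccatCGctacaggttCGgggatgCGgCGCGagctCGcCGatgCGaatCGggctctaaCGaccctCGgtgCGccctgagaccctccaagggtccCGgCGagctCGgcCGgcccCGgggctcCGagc
CG, which reads the same on both strands, occurred 4 times in the Zscan4c window, 2 times in that of Zfp352, 0 times in that of Tdpoz4 and 41 times in that of Mkrn1. Of 32851 RefSeq windows of the same length, 38.0% held 4 or fewer, 23.3% held 2 or fewer and 5.43% held none, while 97.0% held 41 or fewer. This is a description of the windows only.

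Zscan4c (chromosome 7, 11005745 to 11010547, plus strand) had 2177 and 1869 normalised counts in the gene trap, against 14127 and 9862 in C129 (log2 difference -2.55, SE 0.545, adjusted p = 0.00473). Pali wild type had 23.02 and 34.19. The gene trap was thus below C129 and above Pali wild type in every library. Zscan4a, Zscan4b, Zscan4d and Zscan4f fell by 2.58, 2.60, 2.50 and 2.28. The copies are nearly alike in sequence, and how reads were shared out among them is not known. Summed, the 5 listed genes had 6718 and 5520 in the gene trap, 39954 and 28811 in C129 and 104 and 59.8 in Pali wild type. Without C129 replicate 1 none of the 5 was called, with log2 differences of -2.44 for Zscan4a, -2.36 for Zscan4b, -2.29 for Zscan4c, -2.31 for Zscan4d and -2.02 for Zscan4f. The calls of Zscan4b and Zscan4d also did not hold without gene trap replicate 2 (-2.45 and -2.57), nor that of Zscan4d without gene trap replicate 1 (-2.43), and that of Zscan4f was lost whichever library was left out (-2.55 to -2.02).

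Zfp352 and members of smaller families showed the same order of lines. Zfp352, a zinc finger gene of the 2-cell embryo, had 26.0 and 21.5 in the gene trap, 240 and 208 in C129 and 1.10 and 0 in Pali wild type (log2 difference to C129 -3.04, SE 0.480, adjusted p = 0.000473). Tcstv3 had 37.3 and 23.1 in the gene trap and 306 and 233 in C129 (-3.02, adjusted p = 0.00033), and 0 in both Pali wild type libraries. Tdpoz4, a speckle-type domain gene of the oocyte and early embryo, had 12.4 and 16.9 in the gene trap and 146 and 169 in C129 (-3.12, adjusted p = 5.69e-05). The calls of these 3 genes held when any 1 library was left out. Set against Pali wild type in place of C129, 18 of the 25 genes were higher in the gene trap and 0 lower, with a median of 2.37. Of all 15712 tested genes, 1005 were higher and 1039 lower than in Pali wild type. Both comparisons use the same gene trap libraries.

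**Figure D3:**
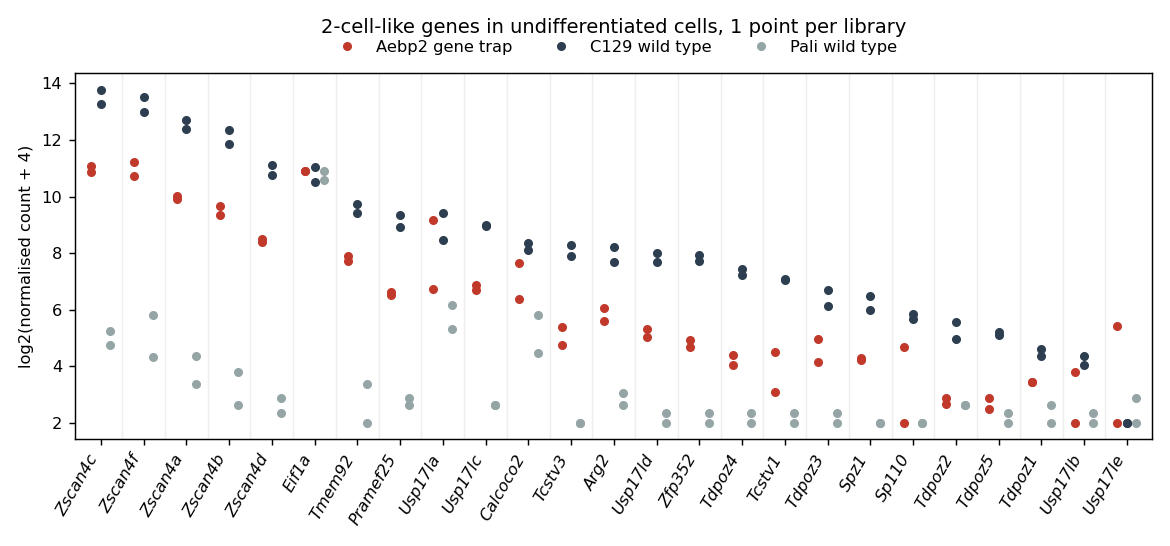
Levels of the 25 tested 2-cell-like genes at day 0 on a log2 scale, with 1 point per library, ordered by their level in C129. For most genes the gene trap lies between C129 and Pali wild type, as for Zscan4c at 2177 and 1869 in the gene trap, 14127 and 9862 in C129 and 23.02 and 34.19 in Pali wild type.

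Neighbouring families of repeated genes fell as blocks. Along each chromosome, runs were sought in which the running median of 11 genes with a mean of at least 50 stayed beyond 0.4 on the log2 scale; this search was made after the values were seen and carries no test. Counted in genes, the longest run of lower genes lay on chromosome 4, from 143412426 to 147848366. Of its 29 genes 23 fell and 0 rose, with a median of -1.49. It holds Pramef genes, a family expressed in germ cells and early embryos, and a cluster of zinc finger genes. Pramef25 had 88.2 and 93.7 normalised counts in the gene trap, 642 and 485 in C129 and 3.29 and 2.14 in Pali wild type (log2 difference to C129 -2.56, adjusted p = 0.00338). Rex2, a zinc finger gene of the cluster, had 9459 and 10368 in the gene trap, 29369 and 25532 in C129 and 5483 and 8361 in Pali wild type (-1.47, adjusted p = 0.00569), with no call without C129 replicate 1 (-1.37). Zfp982 had 362 and 420 in the gene trap and 1028 and 871 in C129 (-1.27, adjusted p = 0.00314). A second zinc finger cluster, on chromosome 2 from 175422300 to 178078476, had 12 of 22 genes lower (54.5%) and 0 higher, with a median of -0.67. Over the chromosome 2 run the median gene lay 0.04 and 0.03 above the Pali wild type mean in the gene trap and 0.51 and 0.69 above it in C129. Reads from members of such families can be shared between copies, so counts per gene are uncertain.

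The largest block in the other direction was the stretch of chromosome 6 from 29348069 to 83343776, between Calu and Mob1a. It spans 54.0 Mb and ends 57.3 Mb before Aebp2. Of 258 tested genes in it, 95 were higher in the gene trap (36.8%) and 3 lower (1.16%), beside 5.23% and 7.78% of all tested genes. Of the 151 with a mean of at least 50, 141 were positive (93.4%, beside 50.1% over all chromosomes), with a median log2 difference of 0.81. The stretch was cut as the longest run of higher genes in these same differences, so these values follow in part from the search. In the rest of chromosome 6, 18 of 483 genes were higher and 38 lower, with a median of -0.04.

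The second wild type gives a further level for this stretch. Set against the Pali wild type mean, the median gene of the stretch lay at 0.10 and 0.20 in the 2 gene trap libraries and at -0.83 and -0.63 in the 2 C129 libraries. At day 4 the same medians were -0.03 and 0.02 in the gene trap and -0.90 and -0.63 in C129, and at day 8 -0.03 and -0.04 in the gene trap and -0.55 and -0.11 in C129. On each day the gene trap medians thus lay nearer to Pali wild type than the C129 medians did. Copy number was not measured in these files.

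Named genes of the stretch follow that order. Mkrn1, a ubiquitin ligase gene, had 7821 and 9664 normalised counts in the gene trap, 3109 and 3334 in C129 and 7501 and 9326 in Pali wild type (log2 difference to C129 1.43, SE 0.123, adjusted p = 2.31e-06). Rnf103 had 85.7 and 142 in the gene trap, 15.2 and 31.7 in C129 and 83.9 and 154 in Pali wild type (2.13, adjusted p = 0.000441). Fmc1 had 96.1 and 124 in the gene trap and 25.2 and 30.0 in C129 (1.85, adjusted p = 0.000687). Igf2bp3, which encodes an RNA-binding protein of fetal tissues, had 2907 and 3263 in the gene trap and 1464 and 1731 in C129 (0.95, adjusted p = 0.000301). Its paralogue Igf2bp2 lies on chromosome 16 and fell to 2338 and 2765 in the gene trap, against 4005 and 4144 in C129 (-0.68, adjusted p = 0.000768). Of the 15 largest rises, 4 lie in the stretch, namely Gcfc2, Mest, Rnf103 and Fmc1. With the stretch left out and p-values adjusted again, 702 genes were higher and 1202 lower.

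**Figure D4:**
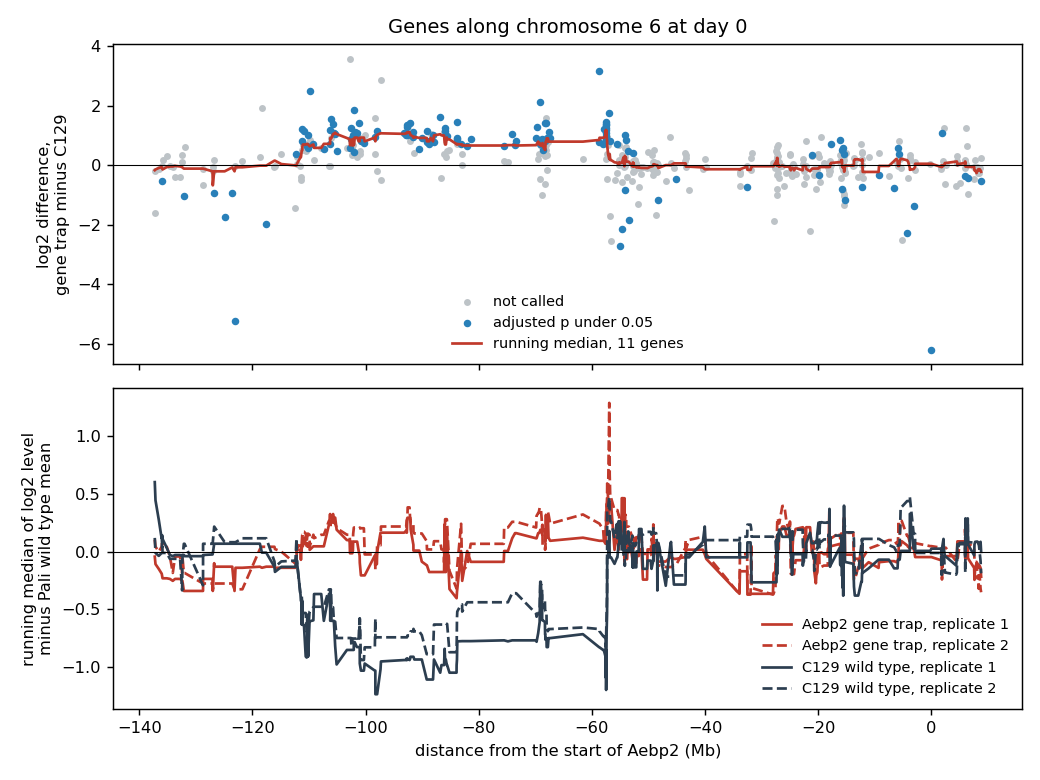
Genes of chromosome 6 with a mean of at least 50, by distance from the start of Aebp2 in Mb. The upper panel gives the log2 difference of the gene trap minus C129 with a running median, which stays above 0.4 over the stretch. The median gene drawn in the stretch lies at 0.81. The lower panel gives the running median of each library's log2 level minus the Pali wild type mean. In it both C129 libraries drop over the stretch and both gene trap libraries stay near 0.

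Chromosome 11 had a smaller shift. Of its 1249 tested genes 96 were higher (7.69%) and 42 lower (3.36%), beside 5.23% and 7.78% of all tested genes. Of 841 genes with a mean of at least 50, 591 were positive (70.3%, beside 50.1% over all chromosomes), with a median of 0.16. Against Pali wild type the median chromosome 11 gene lay at 0.23 and 0.21 in the gene trap and at -0.00 and 0.03 in C129. At day 0 the gene trap thus lay above both wild types. At day 4 these medians were 0.20 and 0.14 in the gene trap and 0.02 and 0.10 in C129. At day 8 they were 0.40 and 0.27 in the gene trap and 0.06 and 0.39 in C129, which overlap. The day 0 medians (gene trap minus C129) of chromosomes 1 to 19 and X other than 6 and 11 lay between -0.09 and 0.05. Without chromosomes 6 and 11, 601 genes were higher and 1128 lower.

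Among the largest rises outside chromosome 6, Bdh1, a ketone body enzyme gene, had 620 and 705 in the gene trap, 181 and 240 in C129 and 432 and 438 in Pali wild type (log2 difference to C129 1.65, SE 0.166, adjusted p = 9.15e-06). Zkscan6, a zinc finger gene on chromosome 11, had 189 and 170 in the gene trap and 22.1 and 35.5 in C129 (2.51, adjusted p = 0.000981). Both calls held with any 1 library left out. Plcd3 and Slc39a1 were higher by 3.12 and 3.64, but C129 replicates of Slc39a1 were at 10.1 and 796, and neither call held without C129 replicate 1 (2.96 and 0.72), gene trap replicate 1 (3.02 and 3.38) or gene trap replicate 2 (3.22 and 3.89), nor that of Plcd3 without C129 replicate 2 (3.28). Tmsb4x, an actin-binding peptide gene, was at 1130 and 1902 in the gene trap and listed at 0 in both C129 libraries. Fam76b was at 245 and 284 in the gene trap and listed at 0 in both C129 libraries. Met and Gramd1a were listed at 0 in both gene trap libraries and lay at 147 and 143 (Met) and 166 and 189 (Gramd1a) in C129.

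Among the largest falls, Plxdc2 had 7.92 and 12.3 normalised counts in the gene trap, against 160 and 210 in C129 (log2 difference -3.75, SE 0.302, adjusted p = 1.18e-06). Igfbp7, a secreted binding protein of insulin-like growth factors, had 7.32 and 5.62 in the gene trap and 159 and 116 in C129 (-3.74, adjusted p = 6.41e-06). In Pali wild type Plxdc2 was at 4.38 and 7.48 and Igfbp7 at 8.01 and 7.81, close to the gene trap. Tacr3, a neurokinin receptor gene, had 9.05 and 6.92 in the gene trap, 120 and 99.7 in C129 and 0 in both Pali wild type libraries (-3.25, adjusted p = 5.28e-05).

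For other genes both gene trap libraries lay below all 4 wild type libraries. Pof1b, an actin-binding protein of epithelia, had 4.52 and 1.54 in the gene trap, 142 and 126 in C129 and 197 and 137 in Pali wild type (-4.33, adjusted p = 8.72e-05). Cntln, a centrosome gene, had 7.84 and 2.11 in the gene trap, 113 and 91.4 in C129 and 135 and 142 in Pali wild type (-3.63, adjusted p = 4.45e-06). Nsg2 had 5.56 and 4.53 in the gene trap, 110 and 199 in C129 and 36.7 and 87.2 in Pali wild type (-4.07, adjusted p = 4.93e-05). Pdgfc, a growth factor gene, had 92.7 and 84.5 in the gene trap, 688 and 702 in C129 and 281 and 346 in Pali wild type (-2.92, adjusted p = 9.15e-06); it was picked after its values were seen. All these falls from Plxdc2 to Pdgfc held with any 1 library left out.

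Of 49 tested imprinted genes, which are expressed from one parental copy, 3 rose (6.12%) and 9 fell (18.4%), with a median of -0.21, beside 5.23% of all tested genes that rose and 7.78% that fell. With 1 library left out, 0 to 2 rose and 3 to 6 fell. H19, a maternally expressed RNA (chromosome 7, 142575529 to 142578143, minus strand), had 71.2 and 20.8 normalised counts in the gene trap, against 936 and 465 in C129 (log2 difference -3.94, SE 0.503, adjusted p = 8.73e-05). Pali wild type had 14.3 and 6.42. Kcnq1ot1 (chromosome 7, 143203458 to 143296549, minus strand), the long RNA made from the paternal copy of its domain, had 23558 and 15505 in the gene trap, 48349 and 50456 in C129 and 17737 and 17097 in Pali wild type (-1.37, adjusted p = 0.000787). For both RNAs C129 lay above the gene trap and Pali wild type.

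Meg3, a maternally expressed RNA of chromosome 12, was lowest in the gene trap: 774 and 801, against 1724 and 1540 in C129 and 2093 and 1780 in Pali wild type (-1.05, SE 0.184, adjusted p = 0.00116). Grb10, a growth restraining adaptor, had 432 and 411 in the gene trap, 862 and 841 in C129 and 4252 and 7108 in Pali wild type (-1.01, adjusted p = 0.0481), and its call was lost whichever library was left out (-1.05 to -0.97). Mest, the paternally expressed gene at the left end of the chromosome 6 stretch, had 2649 and 3229 in the gene trap, 309 and 851 in C129 and 4001 and 4194 in Pali wild type (2.50, adjusted p = 0.0145), without a call when gene trap replicate 2 (2.36) or C129 replicate 1 (1.78) was left out. Nap1l5, which also lies in the stretch, and Nnat were the other rises, by 1.30 and 1.45; the call of Nap1l5 was lost whichever library was left out (1.12 to 1.47), and that of Nnat was lost without gene trap replicate 1 (1.33) or C129 replicate 1 (1.11). Among the falls, Cdkn1c, a growth inhibitor, was at 0 and 0.77 in the gene trap and 71.5 and 78.4 in C129 (-4.17, adjusted p = 0.021), with no call whichever library was left out (-4.30 to -4.05), and Igf2, a fetal growth factor, at 34.4 and 16.9 in the gene trap and 80.5 and 68.6 in C129 (-1.47, adjusted p = 0.013), with no call without gene trap replicate 2 (-1.03) or C129 replicate 1 (-1.36).

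Developmental regulators known as PRC2 targets showed few calls. Of 75 tested among 94 listed, 0 rose and 5 fell (6.67%), with a median of -0.27, beside 5.23% of all tested genes that rose and 7.78% that fell. With 1 library left out, 0 rose and 0 to 2 fell. With a pseudocount of 16, with only genes of a mean of at least 50, or without genes whose duplicates differed widely, 1 rose. Against Pali wild type 2 were higher and 2 lower, beside 1005 higher and 1039 lower of all 15712 tested genes. Of 39 Hox genes 14 were tested, and 0 rose and 4 fell, all of the Hoxd cluster of chromosome 2. Hoxd8, Hoxd9 and Hoxd11 passed the filter on low values only through C129 at day 0, so they could only be called lower. Hoxd8 had 2.47 and 2.52 in the gene trap, 34.3 and 21.3 in C129 and 0 and 2.33 in Pali wild type (log2 difference to C129 -2.26, SE 0.346). Its difference lay between -2.56 and -1.96 with any 1 library left out, but the filter was not redone then. The call of Hoxd8 is therefore not read as support for a fall. Hoxd13, a regulator of distal limbs, had 15.8 and 29.2 in the gene trap, 110 and 73.6 in C129 and 12.1 and 36.3 in Pali wild type (-1.87, adjusted p = 0.0397). The calls of Hoxd13, Ebf1 (-1.94) and Twist1 (-1.53) were lost whichever library was left out, with ranges of -2.24 to -1.50, -2.25 to -1.63 and -1.61 to -1.46. Hoxd9 (-1.31) and Hoxd11 (-1.29) were not called without gene trap replicate 2 (-0.69 and -0.86), C129 replicate 1 (-1.11 and -1.32) or C129 replicate 2 (-1.51 and -1.27). Lmx1a, a regulator of dopaminergic neurons, was called at -3.68 and was not without gene trap replicate 2 (-2.41), C129 replicate 1 (-3.49) or C129 replicate 2 (-3.87).

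Of 29 tested genes of the pluripotency network 0 rose and 1 fell (3.45%), with a median of 0.00. Of all tested genes 5.23% rose and 7.78% fell. Pou5f1, the core factor, had 20591 and 23514 normalised counts in the gene trap and 21926 and 21670 in C129 (log2 difference 0.01, SE 0.253). Nanog had 13494 and 14317 in the gene trap and 17341 and 14623 in C129 (-0.20, adjusted p = 0.544), and Sox2 had 9980 and 10945 in the gene trap and 9438 and 9099 in C129 (0.17, adjusted p = 0.319). For Zfp42, which marks naive cells, the values were 15344 and 15587 in the gene trap and 12745 and 8467 in C129 (log2 difference 0.57, adjusted p = 0.262). A p above the threshold does not show equal levels. The fall was Dppa2, a regulator of early embryonic genes, with 3248 and 4021 in the gene trap, 6765 and 5903 in C129 and 2826 and 3390 in Pali wild type (-0.81, adjusted p = 0.0326), and its call was lost whichever library was left out (-0.96 to -0.65).

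Germline and meiosis genes fell in 7 of 38 tested and rose in 0, with a median of -0.83; 18.4% fell, beside 7.78% of all tested genes. The number was 1 without C129 replicate 1 and 4 without gene trap replicate 2, and against Pali wild type 6 were higher and 0 lower. In the comparison with Pali wild type, 1005 of all 15712 tested genes were higher and 1039 lower. Rpl10l, the testis copy of a ribosomal protein gene, had 579 and 761 in the gene trap, 2228 and 2372 in C129 and 384 and 316 in Pali wild type (log2 difference to C129 -1.79, adjusted p = 0.00124). Sycp1, a protein of the synaptonemal complex that joins chromosomes in meiosis, had 192 and 189 in the gene trap, 398 and 375 in C129 and 193 and 193 in Pali wild type (adjusted p against C129 = 0.006), and was not called without C129 replicate 1 (-0.96). The DNA methylation list had 1 rise (5.56%) and 3 falls (16.7%) in 18, and no call without gene trap replicate 1, without C129 replicate 1 or in the 12-library fit. Dnmt3l, the cofactor of the de novo methyltransferases, had 3681 and 4620 in the gene trap, 8554 and 7092 in C129 and 1762 and 1774 in Pali wild type (-0.92, adjusted p = 0.0189), with no call without gene trap replicate 1 (-0.75) or C129 replicate 1 (-0.78).

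**Figure D5:**
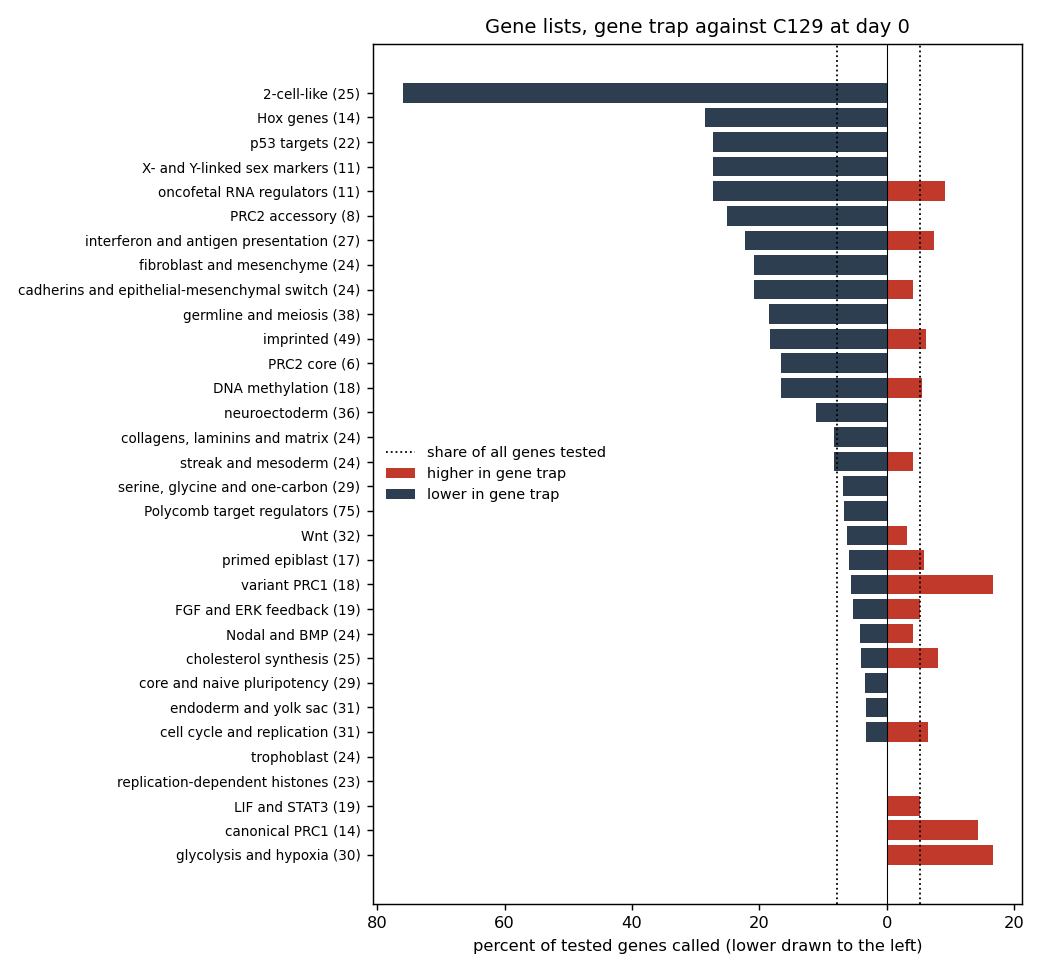
Share of tested genes called higher (right) and lower (left) in the gene trap than in C129 for each of 32 gene lists, with the number tested in brackets and dotted lines at the shares of all tested genes, 5.23% higher and 7.78% lower. The 2-cell-like list, with 19 of 25 genes lower, stands far to the left of the others.

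Of 30 genes of glycolysis and the hypoxia response, 5 rose (16.7%, beside 5.23% of all tested genes) and 0 fell, with a median of 0.32; 1 rose without gene trap replicate 2 and 2 without C129 replicate 1. Of these, Hk2, which traps glucose in the cell, is in the chromosome 6 stretch and had 8503 and 6302 in the gene trap, 2804 and 3468 in C129 and 12246 and 12117 in Pali wild type (log2 difference to C129 1.23, adjusted p = 0.000826). Gapdh had 76812 and 85131 in the gene trap and 57462 and 67341 in C129 (0.38, adjusted p = 0.034) and was not called without gene trap replicate 2 (0.30) or C129 replicate 1 (0.26). Of 22 targets of the p53 stress response 0 rose and 6 fell (27.3%), with a median of -0.25, and 1 to 5 fell with 1 library left out. Of all tested genes 7.78% fell. Against Pali wild type 8 of the 22 p53 targets were higher and 1 lower, with a median of 0.28. All 15712 tested genes gave 1005 higher and 1039 lower in that comparison. Eda2r, a receptor of that group, had 941 and 848 in the gene trap, 1539 and 1727 in C129 and 614 and 722 in Pali wild type (-0.87, SE 0.105, adjusted p = 5.28e-05).

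Of 27 interferon and antigen presentation genes 2 rose (7.41%) and 6 fell (22.2%), beside 5.23% and 7.78% of all tested genes. Without C129 replicate 1, 0 were higher and 1 lower. Ifitm3, a membrane protein of antiviral defence, had 370 and 416 in the gene trap, 823 and 1079 in C129 and 1625 and 1119 in Pali wild type (log2 difference to C129 -1.25, SE 0.174, adjusted p = 0.000166). Its neighbour Ifitm2 was higher, with 2341 and 2395 in the gene trap and 1399 and 1596 in C129 (0.66, adjusted p = 0.00882), but was not called without gene trap replicate 2 (0.65) or C129 replicate 1 (0.57). Reads of these alike genes may be shared. Of 24 genes of cadherins and the epithelial-mesenchymal switch 1 rose (4.17%) and 5 fell (20.8%), and 1 fell without gene trap replicate 2. The falls included Grhl2 (-1.41), a regulator of epithelia, and Twist1, which drives the mesenchymal state. The call of Grhl2 was lost without gene trap replicate 2 (-1.28) or C129 replicate 2. Mmp14, a matrix protease gene, had 936 and 968 in the gene trap and 489 and 522 in C129 (0.91, SE 0.128, adjusted p = 0.00019). Of 24 collagen, laminin and matrix genes 0 rose and 2 fell (8.33%), near the share of all tested genes. Lama5, a laminin chain of the basement membrane, had 3226 and 3049 in the gene trap, 7370 and 6071 in C129 and 4211 and 4967 in Pali wild type (-1.09, adjusted p = 0.00124).

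A pair of Y-linked genes separated the lines. Zfy1 fell to 13.6 and 9.99 in the gene trap, against 66.7 and 72.3 in C129 (log2 difference -2.23, adjusted p = 0.00101), and Usp9y to 9.05 and 15.4, against 61.7 and 58.6 in C129 (-2.01, adjusted p = 0.00124). Eif2s3y had 312 and 158 in the gene trap and 400 and 222 in C129, which overlap, and 0 in both Pali wild type libraries. Ddx3y was listed at 0 in all 4 libraries, and Xist had 327 and 270 in the gene trap and 312 and 508 in C129, which overlap.

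The day 0 difference was then set against the later days. The difference at day 4 minus that at day 0 was called for 162 genes (1.03% of those tested), 119 more positive (0.757%) and 43 more negative (0.274%). At day 8 it was called for 2399 genes (15.3%), 1361 more positive (8.66%) and 1038 more negative (6.61%). Without gene trap replicate 2 of day 0 the day 4 count was 70, and without C129 replicate 1 the counts were 35 for day 4 and 1534 for day 8. Each of the later differences was set against the day 0 difference, and the 3 days share no library. In the chromosome 6 stretch the median difference between the lines was 0.81 at day 0, 0.77 at day 4 and 0.35 at day 8. Plxdc2 was at 338 and 587 in the gene trap and 877 and 783 in C129 at day 4, so its fall was smaller by 2.86 than at day 0 (adjusted p = 0.00356), and Cntln was at 71.5 and 83.8 in the gene trap and 79.0 and 98.3 in C129, a change of 3.45 (adjusted p = 0.00166). Zkscan6 had 113 and 123 in the gene trap and 179 and 138 in C129 at day 4, a difference that was not called (-0.40, limma adjusted p = 0.653). Its change from day 0 was -2.91 (adjusted p = 0.028).

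At day 8 the 2-cell-like list had 19 of 25 genes whose difference was more positive than at day 0 and 0 more negative, with a median difference between the lines of 0.62 at day 8 and -2.42 at day 0. Of the 25, 13 were under 10 normalised counts in all 4 libraries of day 8, and 11 of the 19 are among these, so for them the change restates the day 0 fall. Of 29 pluripotency genes, 20 were more positive and 0 more negative. Of 75 Polycomb target regulators 0 were more positive and 20 more negative. Over all tested genes, 8.66% were more positive and 6.61% more negative. For Tmem132c, the gene trap had 13.6 and 10.6 and C129 765 and 1248 at day 8, a change of -4.74 from day 0 (adjusted p = 0.000442), and for Sox21, a neural transcription factor, the gene trap had 76.6 and 150 and C129 849 and 1237, a change of -4.14 (adjusted p = 0.00513).

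The gene trap difference at day 0 was also set against that of the Pali1/2 double knockout, which lacks the PALI partners of PRC2, with Pali wild type as its reference. The 2 differences share no library. They differed for 2014 genes (12.8% of those tested), 650 with a more positive difference in the gene trap (4.14%) and 1364 with a more negative one (8.68%). The count was 1272 without C129 replicate 1. The title of double knockout replicate 1 names undifferentiated cells while its description speaks of culture without LIF; the title was followed. H19 had 71.2 and 20.8 in the gene trap and 936 and 465 in C129, and 131 and 94.1 in the double knockout and 14.3 and 6.42 in Pali wild type, so that the differences were opposite in sign (gene trap minus double knockout -7.00 on the log2 scale, adjusted p = 9.62e-06). For Plxdc2, the double knockout had 135 and 200 and Pali wild type 4.38 and 7.48, and the gene trap difference was lower by 7.85 (adjusted p = 6.05e-09). Zscan4a had 360 and 189 in the double knockout and 16.4 and 6.41 in Pali wild type, and its gene trap difference was lower by 6.77. The 2 wild type lines themselves lie far apart for these genes.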

How the data were processed

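Expression came as a single table of the authors' normalised counts, one value for each gene and library; the deposited signal is at least 0 and need not be a whole number. The submitters' processing notes list DESeq2, HISAT2 (2.0.5), kallisto (0.43.1) and mm10 as genome build, with no role for each. The use of strand and the way transcripts were summed into genes are not stated in the sources used here. Per the labels' protocols, libraries came from rRNA-depleted total RNA with a strand-marking kit. Reads per library were estimated from the steps between low values. C129 is taken as the wild type of the gene trap line from the rule of comparison and the order of the design text.

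Values were taken as log2(value + 4), for genes at 10 or more in at least 2 of 30 libraries (15712 of 20563). limma 3.58.1 in R 4.3.3 was fitted with 1 mean per group to all 15 groups (15 residual degrees of freedom, trended, robust), with Benjamini-Hochberg adjustment over all tested genes and a threshold of 0.05. On simulated data for the day 0 comparison (15712 genes), 53 of 100 genes changed 2-fold and 89 of 100 changed 4-fold were recovered. Positions are from GENCODE for GRCm38 and promoters from RefSeq. Named genes are the PRC2 genes, Aebp2's neighbours, line and cell type checks, up to 4 called members of each of 32 lists per direction, and the 15 largest rises and falls whose 4 libraries averaged 50 or more, were all above 0 and did not overlap between lines; the text gives the values of some of these. Others, such as Mkrn1, Pdgfc, Rex2, Zfp982 and Pramef25, were picked after their values were seen, as were runs along chromosomes. The comparison and the lists were chosen with earlier results of these data known.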

Additional observations from a re-analysis of the deposited data

Results flagged for a closer look

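The results below stand out because the gene trap difference to C129 itself differed between days, or from the difference of the Pali double knockout to Pali wild type, by limma's test of that difference (adjusted p under 0.05). For each contrast the genes named are the 5 with the largest change per direction among those called that averaged 50 or more over the libraries of the contrast, with all 4 day 0 values of the gene trap and C129 above 0 and no overlap between these lines at day 0. Genes outside these limits can show larger changes, such as Tmsb4x, which was listed at 0 in both C129 libraries at day 0. Between day 4 and day 0, 162 genes differed. The largest negative changes (log2) within these limits were -4.21 for Rpap2, -2.91 for Zkscan6, -2.89 for Krt42, -2.44 for Ankrd50 and -2.33 for Ngfr. The largest positive ones within them were 5.21 for Arrdc2, 5.03 for Lonrf3, 3.45 for Cntln, 2.87 for Lipe and 2.86 for Plxdc2. Ngfr, a neurotrophin receptor gene, had 27.9 and 48.7 normalised counts in the gene trap and 293 and 211 in C129 at day 4, and 853 and 667 in the gene trap and 906 and 951 in C129 at day 0.

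Between day 8 and day 0, 2399 genes differed. The changes were -4.91 for Slc39a1, -4.85 for Wnt8b, -4.74 for Tmem132c, -4.14 for Sox21 and -4.03 for Mest, and 5.99 for Nbea, 5.94 for Acan, 5.06 for Tpd52, 4.67 for Serpinb6c and 4.56 for Abcb1a. Mest had 3777 and 6252 in the gene trap and 7198 and 27452 in C129 at day 8, so its C129 duplicates lay far apart. Acan, a cartilage matrix gene, had 94.9 and 50.8 in the gene trap at day 8 and was listed at 0 in both C129 libraries.

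The gene trap and double knockout differences at day 0 were unlike for 2014 genes. The gene trap difference was lower by the following log2 values: -7.85 for Plxdc2, -7.27 for Efhc2, -7.00 for H19, -6.82 for Zscan4b and -6.77 for Zscan4a. It was higher by 6.88 for Arhgef10l, 6.87 for Plcd3, 4.63 for Zfyve28, 4.49 for Naa60 and 3.14 for Zkscan6. Zfyve28 was listed at 0 in both double knockout libraries, and the C129 duplicates of Arhgef10l were at 208 and 3.96.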

How the results depend on the processing

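With 2 libraries per group, the number of calls rests on the spread shared over the series. The 2044 day 0 calls became 979 in a fit to the 12 gene trap and C129 libraries and 1 in a fit to the 4 day 0 libraries, which has fewer samples to estimate the spread. They ranged from 805 to 1543 with 1 library left out, lowest without C129 replicate 1, and the lone sample left is then assumed to vary like the other groups. The day 4 count of 162 was 284 with a pseudocount of 16 and 22 in the 12-library fit, and ranged from 35 to 204 with 1 library left out. The day 8 count of 2399 was 1165 in the 12-library fit and 1534 to 1964 with 1 library left out, and the double knockout count of 2014 was 1272 to 1841. Deviations of same-numbered replicates correlated at 0.084 between gene trap and C129 at day 0, which does not show whether the samples were paired. With a term for replicate number in the fit (a replicate block), the counts were 2297 at day 0 and 245 for day 4. Other pseudocounts, filters and rescalings kept these counts within 1.5 times. Aebp2 kept its direction and call in every setting. Of 92 called genes that were followed, 38 kept direction and call in every setting in which they were tested but the 4-library fit, and none reversed (71 were tested with the filter of a mean of at least 50, and Pali wild type as the reference was not run for single genes); why calls were lost was not tested. Not run were the double knockout contrast in the 12-library fit and all contrasts over days in the 4-library fit, which lack the libraries. Values listed at 0 may be failed estimates.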
